A study of Mus musculus with 12 samples.

Results

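A set of 10 genes of excitation-contraction coupling and the calcium store was followed in the gastrocnemius muscle, a calf muscle, of germ-free mice that had received feces from trained or sedentary donors. The genes were chosen by function, as Cacna1s, Stac3, Ryr1, Jph1, Jph2, Jsrp1, Casq1, Casq2, Atp2a1 and Sln, and every row of the value table whose only annotated symbol was one of these names was taken. All 10 genes were found, in 12 transcript clusters of the 28944 on the array. A transcript cluster is the set of probes that the array summarizes into a single value for a transcript, and 19938 genes had at least 1 with a single symbol.

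Recipients from trained donors (RT, 6 mice) and recipients from sedentary donors (RS, 6 mice) were male germ-free mice of the strain Tsl;ICR[GF], labelled as aged 11 weeks. Both groups were colonized by gavage, kept under specific-pathogen-free conditions on a high-fat diet, and sampled 1 week after the first transfer, so neither group is a germ-free, lean or untreated baseline. For each mouse, 1 Affymetrix Mouse Gene 1.0 ST array was hybridized, from 250 ng of total RNA of the frozen whole muscle. The question was whether the muscle of mice given the microbiota of trained donors differed from that of mice given the microbiota of sedentary donors. Per the methods, recipients were housed together and given identical feces, so a cage or a fecal sample cannot be told apart from donor training, and the p-values measure only the spread between these mice.

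In skeletal muscle, an action potential runs down the T-tubules, where the L-type calcium channel of the tubule membrane acts as a voltage sensor and mechanically opens the ryanodine receptor of the sarcoplasmic reticulum. Calcium leaves the store for the contractile filaments, and SERCA pumps then return it to the reticulum, where calsequestrin holds it in bound form. Junctophilins pin the tubule and the reticulum together at the triad, the junction where the sensor faces the release channel.

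Of these 10 genes, Sln and Jph1 were higher in RT, 0 were lower (also 0 by limma at an unadjusted p below 0.05), and the other 8 did not pass the test. Sln, the sarcolipin that binds the SERCA pump and lowers its transport efficiency, had a log2 signal of 4.30 ± 0.18 in RT and 3.82 ± 0.19 in RS (SD, n = 6 each). Jph1, the junctophilin of skeletal muscle triads, averaged 10.29 ± 0.17 in RT and 9.90 ± 0.24 in RS. The values are log2 signals, so a difference of 1 is a doubling, and each change below is RT minus RS. A change was called when limma, fitted over all 28944 transcript clusters, gave both a raw p below 0.05 and a Benjamini-Hochberg adjusted p below 0.1. By that rule 11.9% of all transcript clusters were called higher and 13.0% lower, beside 2 of 10 and 0 of 10 among these genes. Centring each array on its median added 0.08 to every change, and 20.3% of transcript clusters were then called higher and 8.34% lower. The median change was 0.12 over the 10 genes, of which 9 lay above 0, and -0.01 over all transcript clusters.

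Calls were not spread evenly over signal strength. Among the 2875 transcript clusters at or above the mean signal of Jsrp1, which is the dimmest of all these genes except Casq2 and Sln, 22.2% were called higher and 7.90% lower, with a median change of 0.13. The 8 genes at that strength had a median change of 0.08, and 1 of them, Jph1, was called.

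**Figure D1:**
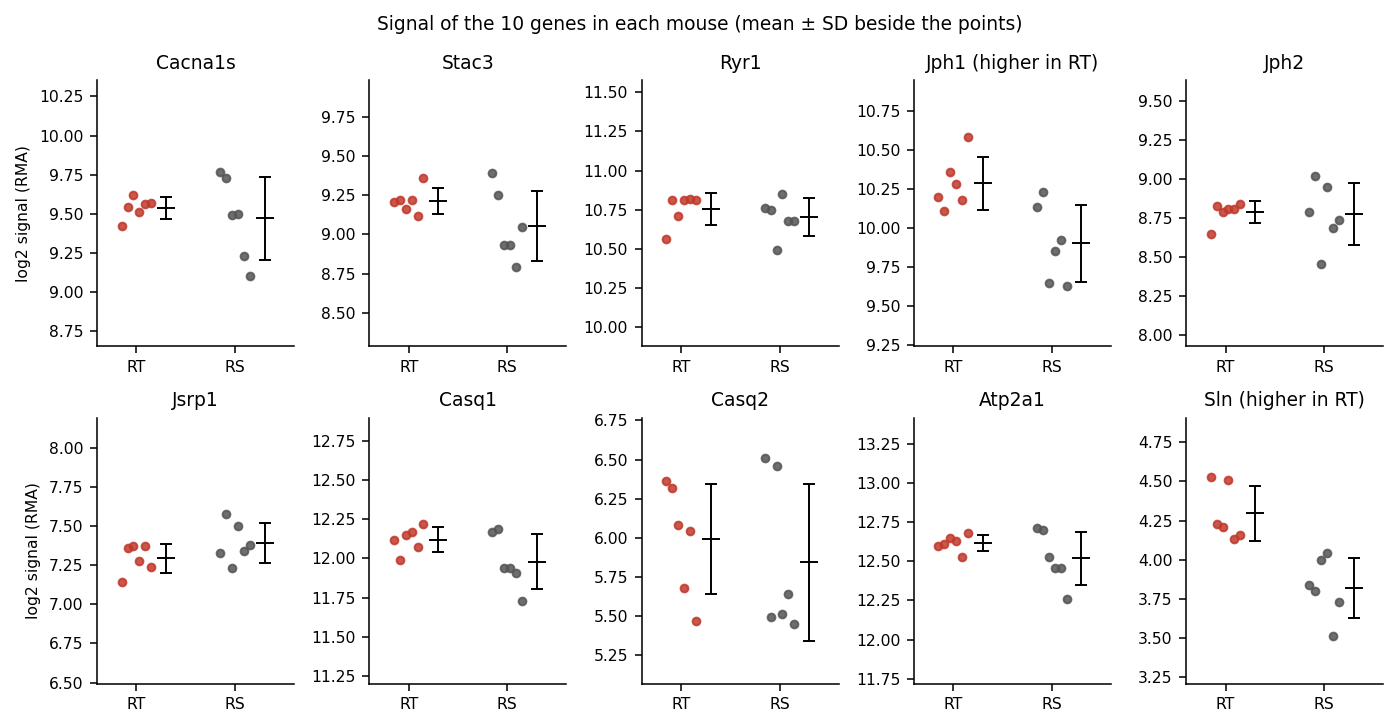
Log2 signal of each of the 10 genes in each mouse, with 1 panel per gene, RT left of RS, 1 point per mouse (6 per group) and the mean ± SD beside the points. Every panel spans the same range. In Sln every RT mouse lies above every RS mouse. In all other panels, Jph1 among them, the groups overlap, with 3 RT mice above every RS mouse in Jph1 and 1 in Casq1.

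The voltage sensor and the release channel differed by less than their spread. Cacna1s, the pore-forming subunit of the L-type channel, had a lowest, median and highest log2 signal of 9.42, 9.55 and 9.62 in RT, and of 9.10, 9.50 and 9.77 in RS. All RT mice fell inside the RS range, and the change was 0.07 with a 95% interval of -0.16 to 0.29 (adjusted p = 0.694, limma). Ryr1, the calcium release channel of the reticulum, had 10.56, 10.81 and 10.82 in RT, and 10.49, 10.72 and 10.85 in RS. RT again lay within RS, with a change of 0.05 and an interval of -0.12 to 0.22 (adjusted p = 0.684, limma). Stac3, an adaptor that brings the L-type channel to the surface and couples it to release, had 9.12, 9.22 and 9.36 in RT, and 8.79, 8.99 and 9.39 in RS. All 6 RT mice lay between the RS median and the highest RS mouse, and the change of 0.16 had an interval of -0.05 to 0.37 (adjusted p = 0.275, limma). Without RS-1, the mouse with the highest Stac3 signal, the change was 0.23 and passed the test (adjusted p = 0.0804, limma). These intervals leave room for changes of up to 0.22 (Ryr1), 0.29 (Cacna1s) and 0.37 (Stac3) upward.

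At the triad, 1 of 3 genes was called. Jph1 had a lowest, median and highest signal of 10.11, 10.24 and 10.58 in RT, and of 9.63, 9.89 and 10.23 in RS. In all, 3 RT mice lay above every RS mouse and 4 RS mice lay below every RT mouse, with the remaining mice overlapping. The change was 0.38 ± 0.11 (SE), or 1.30-fold, with an interval of 0.14 to 0.62 (adjusted p = 0.0331, limma; exact permutation p = 0.0152). This is the brighter of the gene's transcript clusters, which stood for it. The dimmer transcript cluster of Jph1 had 9.45, 9.54 and 9.83 in RT, and 9.17, 9.41 and 9.60 in RS, with a change of 0.17 and an interval of -0.03 to 0.37 that did not pass (adjusted p = 0.212, limma). The 2 transcript clusters of Jph1 therefore had the same direction and gave different calls, and their changes differed by -0.21 (interval -0.36 to -0.06, exact permutation p = 0.0152, 0.0202 after Benjamini-Hochberg over 4 comparisons), a comparison made after their values were seen. Within mice, the dimmer minus the brighter transcript cluster was highest in RS-6 (-0.30) and RS-4 (-0.37). The other RS mice (-0.65 to -0.48) overlapped RT (-0.84 to -0.59). Which transcripts or exons each transcript cluster covers was not analysed here.

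Jph2, the junctophilin best known from the heart and also present in skeletal muscle, had 8.65, 8.81 and 8.84 in RT, and 8.46, 8.77 and 9.02 in RS. All RT mice fell within the RS range, and the change was 0.01 with an interval of -0.18 to 0.21 (adjusted p = 0.935, limma). The gene's dimmer transcript cluster changed by 0.05, with an interval of -0.16 to 0.26. Jsrp1, also called JP-45, is a junctional membrane protein that binds both the L-type channel and calsequestrin. Its signals were 7.14, 7.32 and 7.37 in RT, and 7.23, 7.36 and 7.58 in RS. It was the only gene of the 10 with a lower RT mean, by a change of -0.10 with an interval of -0.27 to 0.07 that did not pass (adjusted p = 0.403, limma).

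**Figure D2:**
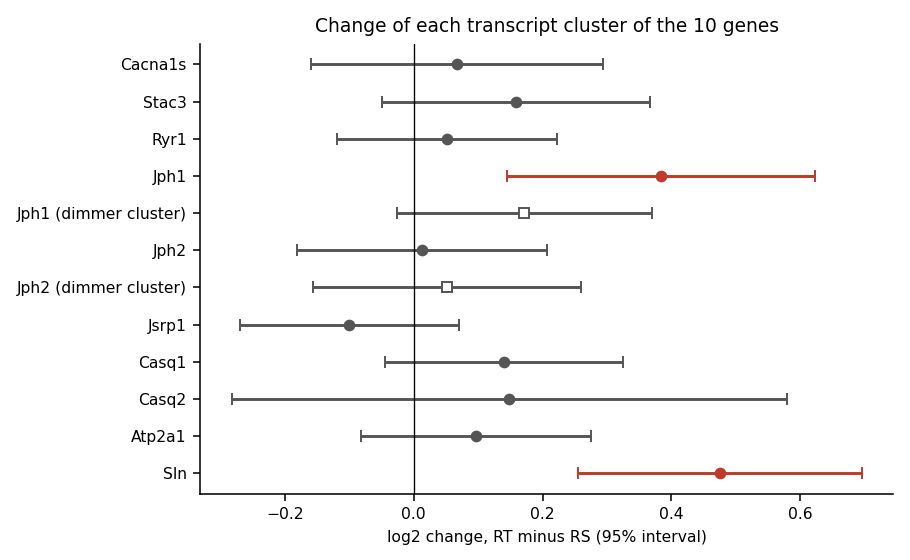
Change in log2 signal, RT minus RS, of each of the 10 genes and of the second transcript clusters of Jph1 and Jph2, as points with 95% intervals and a line at 0, in red where called higher, with open squares for the dimmer transcript clusters. The intervals of Sln (0.25 to 0.70) and of the brighter Jph1 transcript cluster (0.14 to 0.62) exclude 0, and those of the others include it.

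In the store, neither calsequestrin passed the test, and the 2 differed in how far mice lay apart. Casq1, a calsequestrin of skeletal muscle fibers, had 11.99, 12.14 and 12.22 in RT, and 11.73, 11.94 and 12.19 in RS. Its change was 0.14 with an interval of -0.04 to 0.32 (adjusted p = 0.278, limma). Casq2, the calsequestrin of the heart that is also present in slow fibers, had 5.47, 6.06 and 6.36 in RT, and 5.45, 5.58 and 6.51 in RS. RS-1 and RS-3 read 6.51 and 6.46 and the other 4 RS mice lay between 5.45 and 5.64, whereas RT mice were spread along the range. The change of Casq2 was 0.15 with an interval of -0.28 to 0.58 (adjusted p = 0.639, limma), the widest interval of the 10 genes. The SD of Casq2 over mice was 0.35 in RT and 0.50 in RS, against 0.08 and 0.17 for Casq1.

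The promoters of the 2 calsequestrin genes are shown as those of a pair of paralogs. They are RefSeq sequences on build GRCm38.p6, from 250 bases before to 50 bases after the transcript start, and capitals mark the motifs that were found. Casq2 is at chr3:102086165-102086464 on the plus strand and Casq1 at chr1:172219846-172220145 on the minus strand, both written 5′ to 3′ in the direction of transcription.
Casq2: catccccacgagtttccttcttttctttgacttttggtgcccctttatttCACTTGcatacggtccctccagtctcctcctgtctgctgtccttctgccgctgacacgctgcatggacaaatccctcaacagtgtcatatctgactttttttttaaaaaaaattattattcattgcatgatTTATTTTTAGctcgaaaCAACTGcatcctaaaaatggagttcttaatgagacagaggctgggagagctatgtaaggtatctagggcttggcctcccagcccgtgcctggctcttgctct
Casq1: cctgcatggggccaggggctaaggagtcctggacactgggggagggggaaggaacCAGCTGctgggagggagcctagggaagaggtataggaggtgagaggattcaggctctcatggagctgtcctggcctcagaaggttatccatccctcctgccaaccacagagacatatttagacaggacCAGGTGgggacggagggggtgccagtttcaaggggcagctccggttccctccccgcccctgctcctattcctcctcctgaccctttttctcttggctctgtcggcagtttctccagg
Both hold 2 matches to the E-box CANNTG, the core read by myogenic factors such as MyoD, at -200 to -195 and -52 to -47 in Casq2, and at -195 to -190 and -67 to -62 in Casq1. Casq2 also holds a match to the MEF2 motif at -69 to -60, and Casq1 holds none. Neither window holds the MCAT motif CATTCC or TATAAA. Both strands were searched and no matches overlapped. Of 32851 mouse promoters in the table, 72.3% hold an E-box, 3.19% a MEF2 match, 14.7% an MCAT and 13.6% TATAAA, so the E-box is common and the MEF2 match is not. A promoter entry was found for 6 of the 10 genes. Atp2a1 holds 1 E-box, Cacna1s 2 E-boxes and 1 MCAT, Jph2 1 E-box, and Ryr1 none of these motifs. A match is a string of letters and not a measured binding site.

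The pump and its inhibitor gave different calls. Atp2a1, which encodes SERCA1, the calcium pump of fast fibers, had 12.53, 12.62 and 12.68 in RT, and 12.26, 12.50 and 12.71 in RS. RT lay within RS, and the change was 0.10 with an interval of -0.08 to 0.27 (adjusted p = 0.445, limma). Sln had 4.13, 4.22 and 4.53 in RT, and 3.51, 3.82 and 4.04 in RS. The groups did not overlap, with all 6 RT mice above all 6 RS mice, and the change was 0.48 ± 0.10 (SE), or 1.39-fold, with an interval of 0.25 to 0.70 (adjusted p = 0.0088, limma; exact permutation p = 0.00216, the smallest that 6 against 6 allows). Such a gap, with every RT array above every RS array, was found in 2.69% of all transcript clusters, and the opposite gap in 3.10%. The Sln signal was weak, and more transcript clusters on the arrays lay above it than below it (percentile 42.0 by mean signal). In mice, sarcolipin is abundant in the atria and in slow muscle and scarce in adult fast muscle.

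Partners were also compared within each array. This removes any shift shared by the whole array but not a difference in the spread of signal between arrays. Log2 Sln minus log2 Atp2a1 averaged -8.32 ± 0.18 in RT and -8.70 ± 0.23 in RS (SD, n = 6 each). The change of Sln thus exceeded that of Atp2a1 by 0.38, with an interval of 0.11 to 0.65 (exact permutation p = 0.0108, 0.0162 after Benjamini-Hochberg over 3 pairs). Log2 Jph2 minus log2 Jph1 averaged -1.50 ± 0.16 in RT and -1.13 ± 0.19 in RS, so the change of Jph2 was below that of Jph1 by a difference of -0.37 with an interval of -0.59 to -0.15 (exact permutation p = 0.00433, adjusted 0.0130). Against the dimmer Jph1 transcript cluster, a comparison added after its values were seen, the difference was -0.16 (exact permutation p = 0.0281). With the brighter Jph1 transcript cluster, Jph2 minus Jph1 was highest in RS-6 (-0.89) and RS-4 (-0.90). The other RS mice (-1.34 to -1.19) overlapped RT (-1.74 to -1.28). The changes of Casq2 and Casq1 differed by 0.01, with an interval of -0.56 to 0.58 that leaves room for a wide difference either way (exact permutation p = 0.981, adjusted 0.981). The tests were two-sided, and the 3 pairs were themselves chosen with earlier results of these data known. These differences compare changes and say nothing of how much of either transcript was present.

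**Figure D3:**
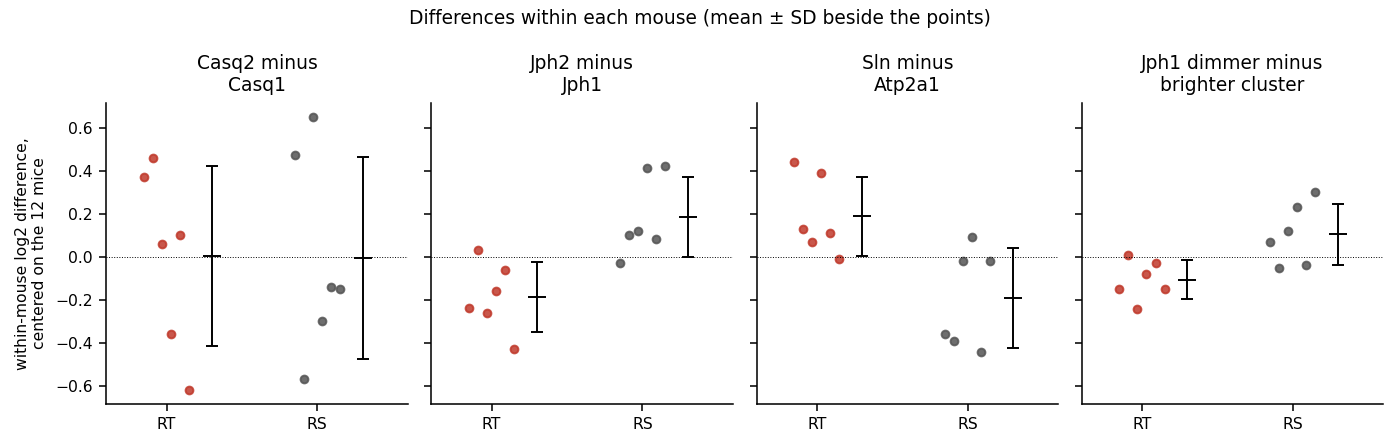
Within-array difference of log2 signal, centered on its mean over the 12 mice, for Casq2 minus Casq1, Jph2 minus Jph1, Sln minus Atp2a1 and the dimmer minus the brighter transcript cluster of Jph1, 1 point per mouse, RT left of RS, with the mean ± SD beside the points. Sln minus Atp2a1 is higher in RT, Jph2 minus Jph1 and the 2 Jph1 transcript clusters are lower in RT, and the calsequestrin difference has near-equal means with mice spread over about a log2 unit.

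RT mice lay closer together than RS mice in each of the 10 genes, with a median SD of 0.09 in RT and 0.20 in RS. RT had the smaller SD in 69.8% of all transcript clusters and in 89.5% of the 2875 bright ones. Without RS-4 and RS-6 these shares were 54.1% and 75.4%, and RT still had the smaller SD in 10 of the 10 genes, with a median SD of 0.09 in RT and 0.22 in RS. RS-6 was the lowest of the 12 mice in 5 genes, namely Cacna1s, Jph1, Casq1, Casq2 and Atp2a1, and lay below its group mean in 10 of 10. RS-1 was the highest in Cacna1s, Stac3, Casq2 and Atp2a1. Mice at the extremes of most genes were thus RS mice on both sides. RS-4 and RS-6 had the narrowest spread of signal on the array (SD 1.97 and 1.99, against 2.06 to 2.15 on the other 10 arrays). The calls were read again with both left out, and in a fit that took the SD of each array as a covariate. Leaving both out also leaves fewer RS mice. The array SD was not balanced between the groups, at 1.97 to 2.13 in RS and 2.08 to 2.15 in RT. A call lost in either fit therefore cannot be assigned to RS-4 and RS-6.

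Sln passed under each of these fits and Jph1 did not. Without RS-4 and RS-6, 5.70% of all transcript clusters were called higher and 6.19% lower; the change of Sln was 0.51 (adjusted p = 0.0177, limma) and that of Jph1 0.30 (adjusted p = 0.140, limma). With the spread as a covariate, 2.53% were called higher and 3.07% lower; the change of Sln was 0.50 (adjusted p = 0.0437, limma) and that of Jph1 0.26 (adjusted p = 0.295, limma). A further quantile normalization called 9.62% higher and 9.53% lower, kept Sln and Jph1, and brought Casq1 past the threshold at 0.20 (adjusted p = 0.0793, limma). Cyclic loess called 9.57% higher and 9.73% lower, kept Sln and Jph1, and brought Jsrp1 past the threshold as lower in RT, at -0.24 (adjusted p = 0.0945, limma). The changes of Cacna1s, Ryr1, Jph2, Casq2 and Atp2a1 passed in none of the alternatives and lay on both sides of 0 among them.

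**Figure D4:**
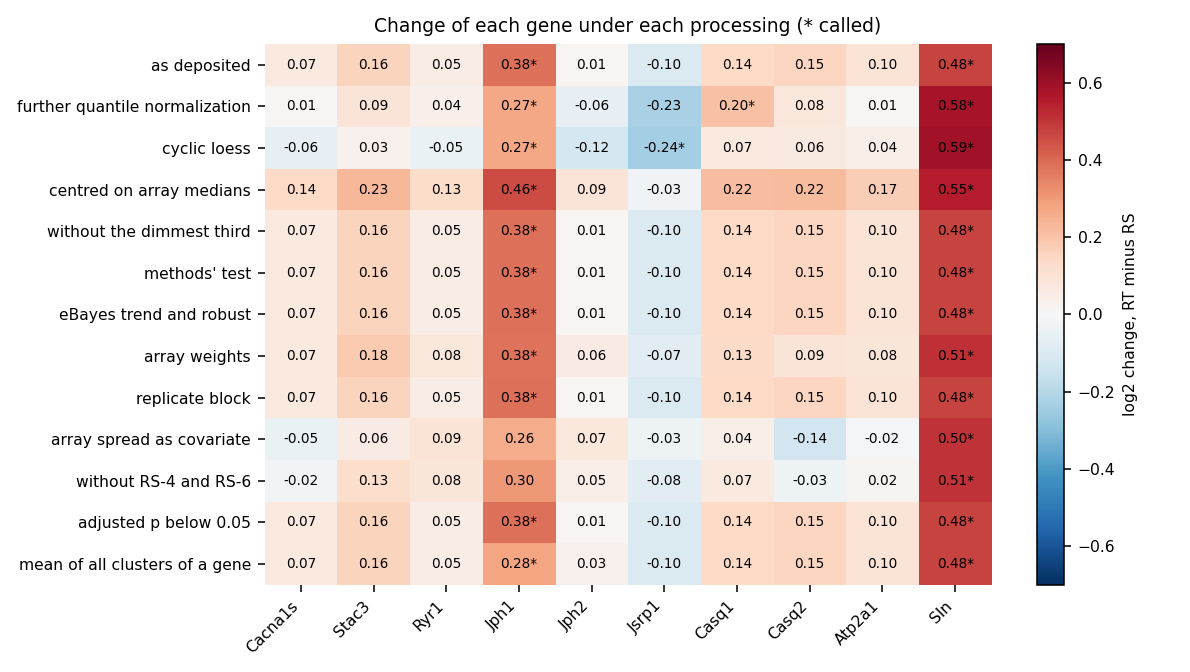
Change in log2 signal, RT minus RS, of each of the 10 genes as deposited and under each alternative other than those that leave out 1 array, with genes in columns, fits in rows, color and printed values for the change, and an asterisk where the gene was called. Sln carries an asterisk in every fit shown, Jph1 loses it with the array spread as a covariate and without RS-4 and RS-6, and Cacna1s, Ryr1, Jph2, Casq2 and Atp2a1 have none.

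Beyond the 10 genes, a list of 70 other genes of muscle calcium handling was read from the same fit, of which 59 had a transcript cluster with a single symbol. RT was higher in 12 of these and lower in 6, and 41 missed the threshold, that is 20.3% and 10.2% beside 11.9% and 13.0% of all transcript clusters. The median change was 0.14. Of the 27 listed genes at or above the mean signal of Jsrp1, 8 were higher and 1 was lower (29.6% and 3.70%, beside 22.2% and 7.90% of all transcript clusters that bright). Of the 32 dimmer ones, 4 were higher and 5 lower (12.5% and 15.6%, beside 10.8% and 13.6%).

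Among partners of the release channel, 3 of 11 measured genes were higher and 1 was lower. Homer1, a scaffold that binds ryanodine receptors and other calcium channels, had 8.07, 8.23 and 8.41 in RT, and 7.35, 7.55 and 7.89 in RS, with no overlap. Its change was 0.63 ± 0.10 (SE; adjusted p = 0.00162, limma), the largest called rise of the list. Selenon, a selenoprotein of the reticulum whose loss causes myopathy, had 4.56, 4.97 and 5.14 in RT, and 4.20, 4.43 and 4.62 in RS, a change of 0.51 (adjusted p = 0.00557, limma). Calm2, 1 of the genes for calmodulin, was higher by 0.33 (adjusted p = 0.0656, limma) in the brighter of its 2 transcript clusters and is named although outside the rule. The other transcript cluster of Calm2 had a change of 0.04 that did not pass (adjusted p = 0.783, limma), and the mean of both gave 0.19 and no call (adjusted p = 0.223, limma). Ryr2, the cardiac ryanodine receptor, was lower, at 3.58 to 3.74 in RT and 3.72 to 4.06 in RS, a change of -0.29 (adjusted p = 0.0243, limma). The Ryr2 signal was weak (mean 3.79, percentile 37.2). Its call was lost after further quantile normalization, after cyclic loess and with the array spread as a covariate. Fkbp1a, a channel stabilizer, had a change of 0.15 that did not pass.

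The called plasma membrane pumps differed in direction. Atp2b1, a plasma membrane calcium pump of many cell types, had 8.0, 8.03 and 8.09 in RT, and 7.63, 7.70 and 7.75 in RS, with no overlap and a change of 0.35 (adjusted p = 0.00381, limma). Atp2b2, a plasma membrane pump best known from neurons and hair cells, had 4.66, 4.83 and 4.93 in RT, and 5.04, 5.23 and 5.58 in RS, also with no overlap and a change of -0.44 (adjusted p = 0.00934, limma). Slc8a2, a sodium-calcium exchanger of the brain, was lower by a change of -0.29 (adjusted p = 0.0852, limma). Its signal was weak (mean 4.26, percentile 45.8), and its call changed in 17 of 24 alternatives. Atp2b1, Atp2b2 and Slc8a2 were the called genes among 11 measured pumps, regulators and exchangers. Atp2a2, the SERCA of slow fibers and heart, ran from 7.79 to 10.02 in RT and from 8.63 to 10.26 in RS, a change of -0.26 that did not pass, and Pln, the phospholamban that inhibits it, had a change of -0.04 that did not pass.

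Of 9 voltage sensor subunits and T-tubule genes, Cacng1, the gamma subunit of the L-type channel, was higher by 0.39 (adjusted p = 0.0702, limma) and Mtm1, a lipid phosphatase needed for tubule structure, by 0.30 (adjusted p = 0.0891, limma). Of 9 genes of triad and reticulum structure, Asph, the locus that also encodes junctin, was higher by 0.30 (adjusted p = 0.0415, limma) and Reep5, a reticulum-shaping protein, by 0.26 (adjusted p = 0.0995, limma). In the same group Jph3 and Jph4, the junctophilins of neurons, were lower by changes of -0.37 and -0.25 (adjusted p = 0.0637 and 0.0445, limma). Their signals were low (means 4.52 and 4.51, percentiles 50.5 and 50.3). Of 24 alternatives, the call changed in 17 for Reep5, 14 for Mtm1, 12 for Jph3, 11 for Cacng1, 5 for Jph4 and 4 for Asph. Trdn, the triadin that anchors calsequestrin to the release channel, was lower by a change of -0.23 in its brightest transcript cluster (adjusted p = 0.0943, limma), and it is named although outside the rule. In all, 13 of its 19 transcript clusters were called lower, by changes of -0.23 to -1.35, and 0 higher, and the mean over all 19 gave -0.45 (adjusted p = 0.0134, limma). The call of the brightest was lost when any of 9 of the 12 arrays was left out, for example at -0.17 without RT-1 (adjusted p = 0.203, limma).

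Calr, a calcium-binding chaperone, was the 1 called gene of 6 store buffers, with a change of 0.31 (adjusted p = 0.0598, limma). The muscle buffers Hrc, Srl and Pvalb had changes of -0.05, 0.10 and 0.08 that did not pass. Of 9 genes of store-operated entry, Trpc1, a cation channel, was higher by 0.38 (adjusted p = 0.0760, limma) and Saraf, which turns such entry off, by 0.37 (adjusted p = 0.0253, limma). The Trpc1 signal was weak (mean 3.88, percentile 38.9). Stim1, the store sensor, and Orai1, the entry channel, had changes of 0.19 and 0.11 that did not pass. Mcu, the pore of the mitochondrial calcium uniporter, had 7.01, 7.15 and 7.22 in RT, and 6.47, 6.82 and 6.99 in RS, with no overlap and a change of 0.37 (adjusted p = 0.0236, limma), the 1 called gene of 4 for mitochondrial uptake. Of 24 alternatives, the call changed in 11 for Trpc1, 9 for Calr, 2 for Mcu and 1 for Saraf. Of the 18 called genes of the list, Homer1, Selenon and Atp2b1 were also called after each further normalization, without RS-4 and RS-6, and with the spread as a covariate. With that covariate, 2.53% of all transcript clusters were called higher and 3.07% lower, beside 11.9% and 13.0% as deposited. The share of all called transcript clusters that stayed called under all these fits was not analysed here.

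**Figure D5:**
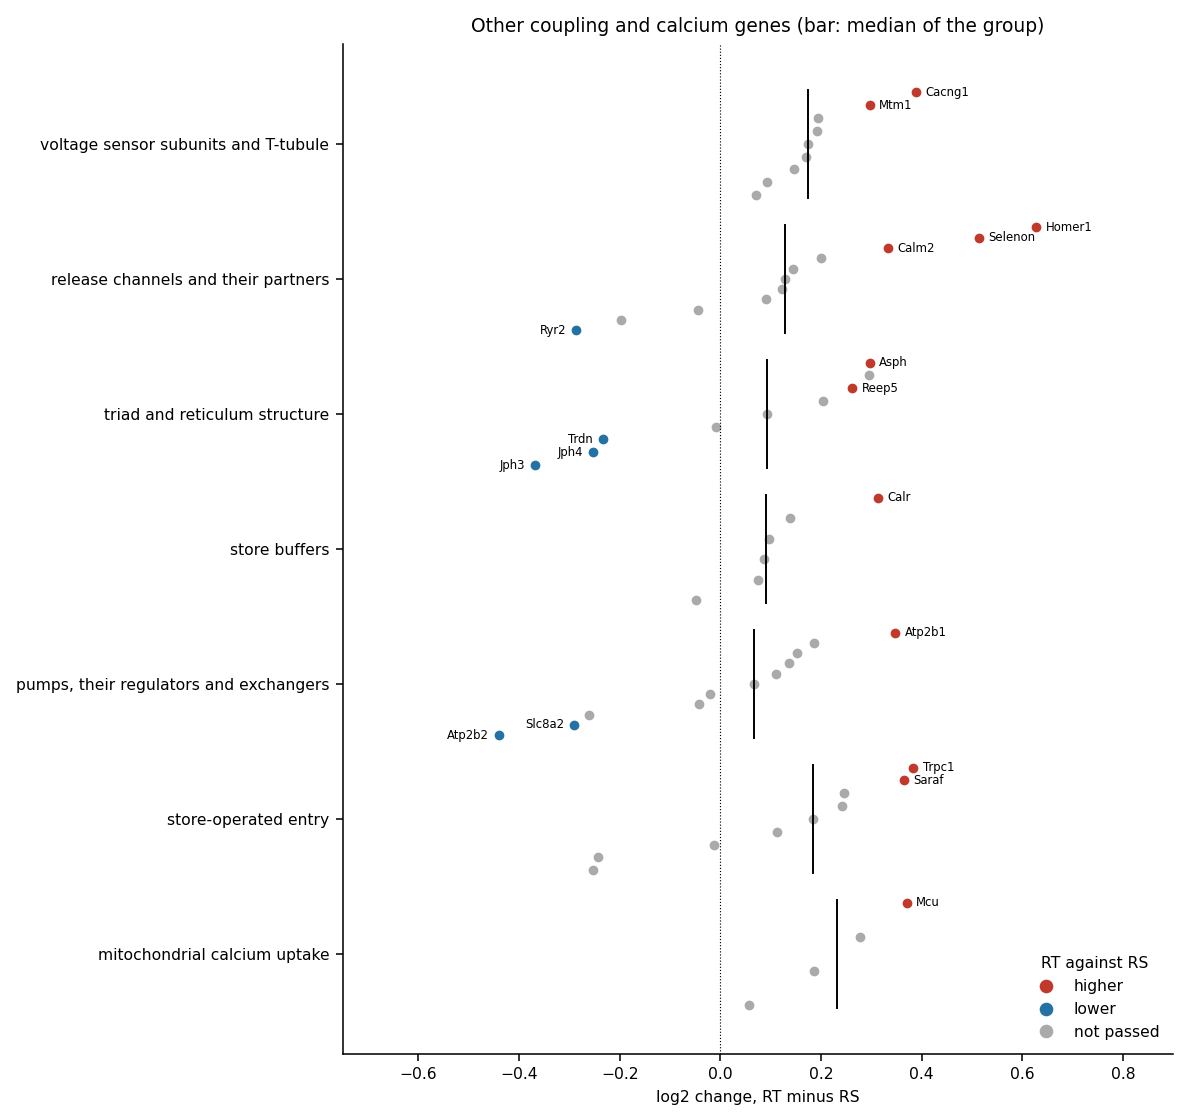
Change in log2 signal, RT minus RS, of 59 other genes of muscle calcium handling, grouped by role, with red points for genes called higher, blue for lower, grey for not passed, a black bar at each group's median and a dotted line at 0. Homer1 (0.63) and Selenon (0.51) are the highest called points and Atp2b2 (-0.44) is the lowest.

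The RNA came from whole muscle, in which fewer cells of a type and less RNA per cell cannot be told apart. Skeletal muscle fiber markers such as Acta1 and Ckm were bright on every array, and summed to 33800 to 36010 in RT and 30894 to 35684 in RS as linear signal. Of 8 such markers 1 was called, Myod1, higher by 0.43. Over all transcript clusters, 11.9% were called higher and 13.0% lower. Fast-twitch markers had 0 of 8 called (32890 to 34609 in RT, 30800 to 35190 in RS). Slow-twitch markers had 0 of 8 higher and 1 lower, Myh7b at -0.42, with sums of 1081 to 6630 in RT and 2621 to 8862 in RS and a median change of -0.43. The slow-twitch range was the widest of the fiber lists, and Casq2 and Atp2a2, which are expressed in slow fibers, had wide ranges too. Cardiac markers had 3 of 6 lower, led by Myh6 at -0.56 and including Ryr2, also counted among the calcium genes (108 to 162 in RT, 154 to 200 in RS). All 6 were dimmer than Jsrp1, and of all transcript clusters that dim 10.8% were called higher and 13.6% lower. Sln, which is abundant in atria and in slow muscle, was higher, and its relation to the slow-twitch and cardiac markers was not tested.

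Many markers of other cells were higher alongside the called genes, beside 11.9% of all transcript clusters called higher and 13.0% lower. RMA signals have no true zero, so no marker can be read as absent. Fibroblast and matrix markers had 7 of 7 higher, led by Fn1 at 1.05 (4402 to 5600 in RT, 2220 to 4469 in RS), and macrophage markers 6 of 6, led by Lyz2 at 1.25 (426 to 641 in RT, 197 to 374 in RS). Endothelial markers had 5 of 5 higher, led by Vwf at 0.71 (686 to 904 in RT, 425 to 676 in RS). Adipocyte markers had 4 of 6 higher, led by Adipoq at 1.31 (538 to 785 in RT, 379 to 548 in RS). Tendon markers had 4 of 5 higher, led by Fmod at 1.51 (713 to 1054 in RT, 291 to 707 in RS), and smooth muscle markers 3 of 5, led by Acta2 at 0.82 (519 to 680 in RT, 301 to 476 in RS). Of 3 Schwann cell markers measured, Pmp22 was higher by 1.15 and Sox10 lower by a change of -0.38 (391 to 1469 in RT, 215 to 564 in RS). Homer1, Atp2b1, Calr and Saraf are expressed in many of these cells as well as in fibers, and the part of the cell lists in their changes, and in those of Sln and Jph1, was not tested.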

How the data were processed

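Gene expression was measured in 12 arrays of gastrocnemius muscle, 6 RT and 6 RS, with 1 array per mouse. The values are the deposited log2 signals, which the authors normalized by RMA (their methods name both RMA and SST-RMA), and no raw intensities were used. The precision is limited by the number of arrays. Groups came from the donor labels, and the table held 0 columns of other samples. Of the transcript clusters, 21789 carried 1 symbol, 1621 several and 5534 none. For a gene with several, the brightest on average was used.

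The comparison of RT with RS was fitted in limma 3.58.1 (lmFit, eBayes; R 4.3.3) across all transcript clusters, two-sided, with no covariate and with the thresholds of the study's methods. Single genes and within-array differences were compared by an exact permutation test over all 924 splits of 6 against 6 (SciPy 1.17.1). Scripts were tested on simulated data. Same-numbered RT and RS arrays were not paired (correlations of -0.24 to 0.107 after removing group means, with 1 of 6 RT arrays closest to its own number).

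The genes, lists, partners and alternatives were chosen with earlier results of these data known. Named were all 10 genes, the 2 largest called changes per direction in each group of calcium genes, and the largest called marker of each cell type; others are examples chosen after their values were seen. The dimmer transcript clusters, the comparison of the Jph1 transcript clusters and the slow-twitch comparison were added after seeing the data. Alternatives were other normalizations, centring, filters, tests, thresholds, array weights, a replicate block, the mean over transcript clusters, and arrays left out.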

Additional observations from a re-analysis of the deposited data

Results flagged for a closer look

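Jph2 in RT-1 read 8.65, against 8.79 to 8.84 in the other 5 RT mice, a gap of 0.737 of the group's range and more than Dixon's 95% critical value for 6 samples. It was the only such sample in 24 groups (12 transcript clusters in RT and RS), and chance sets a sample apart in about 1 in 20 groups. The RS mice spanned 8.46 to 9.02, so the value lay inside their range.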

How the results depend on the processing

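Sln was called higher in each of its 24 alternatives (0.41 to 0.59). The number of the 10 genes called higher, 2 as reported, was 1 with the array spread as a covariate and 1 without RS-4 and RS-6 (Jph1 was lost in both), and 2 to 3 when each array was left out; the number called lower, 0 as reported, was 1 after cyclic loess (Jsrp1) and stayed 0 when each array was left out. Of the other calcium genes, 12 were higher and 6 lower as reported. These counts were 7 and 2 after cyclic loess (9.57% and 9.73% of all transcript clusters), and 8 and 1 after further quantile normalization (9.62% and 9.53%). With arrays centred on their medians they were 23 and 3 (20.3% and 8.34%), and centring added 0.08 to every change alike. They were 3 and 0 with the spread covariate (2.53% and 3.07%), and 4 and 2 without RS-4 and RS-6 (5.70% and 6.19%). The methods' test gave 7 and 3, and an adjusted p below 0.05 gave 6 and 3. Leaving out each array gave 6 to 18 higher (6 without RS-6, 7 without RS-4 and 7 without RT-6) and 3 to 6 lower (3 without RS-4, RS-5 or RT-2). For the methods' test, the stricter threshold and the fits without each array, the share of all transcript clusters called was not analysed here. Those counts therefore cannot be read as particular to the calcium genes. A further 3 Trdn transcript clusters had changes of 0.09, 0.10 and 0.22 that did not pass, opposite in sign to the brightest. The causes were not tested.

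With the replicate number as a block, the replicate block fit gave 2 of the 10 genes higher and 0 lower, and 11 and 4 of the other calcium genes. The share of all transcript clusters called by that fit was not analysed here either. The within-pair p was 1 for the calsequestrins, 0.0313 for the junctophilins and 0.0313 for Sln against Atp2a1. All 3 within-array differences stayed on their side of 0.05 in their 16 or 17 alternatives (the junctophilin difference was -0.16 with the dimmer Jph1 transcript cluster), with leave-one-out ranges of -0.10 to 0.14, -0.41 to -0.32 and 0.33 to 0.43.

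Precision is limited by 6 mice per group, and no background measure was at hand for dim genes such as Sln.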

Other observations

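Casq2 was set against a slow-twitch score, the mean of 8 slow-twitch markers centred over mice, after the spread of Casq2 had been seen. Over all 12 mice Pearson's r was 0.53 (permutation p = 0.0587, 0.176 after Benjamini-Hochberg over 6 p-values) and Spearman's rho 0.37 (permutation p = 0.238, adjusted 0.356). Without RS-2 and RT-6, the mice farthest from the median score, r was 0.33. Within RT r was 0.87 (exact permutation p = 0.0111, adjusted 0.0667) and rho 0.71 (exact permutation p = 0.136, adjusted 0.272), and within RS r was 0.47 (exact permutation p = 0.428, adjusted 0.513) and rho 0.09 (exact permutation p = 0.919, adjusted 0.919). The Pearson value within RT was below the 0.1 used for the array calls and above 0.05, and the other 5 adjusted values were above 0.1. RT-6 had the lowest score, -1.87, with a Casq2 signal of 5.47, and RS-3 the highest score, 0.91, with a Casq2 signal of 6.46. The lowest Casq2 signal, 5.45 in RS-6, came with a score of 0.46, RS-4 had 5.51 with a score of 0.29, and the highest signal, 6.51 in RS-1, came with a score of 0.16. Without RT-6 the change of Casq2 was 0.25 and did not pass.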
